A study of Homo sapiens with 15 samples.

Results

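The EGF family ligands TGFA, AREG, EREG, HBEGF and NRG1 and the receptors EGFR, ERBB2 and ERBB3 were followed through a co-culture of lung fibroblasts with small cell lung cancer (SCLC) cells. These 8 genes were taken by name, and all 8 were listed in both deposited tables, which together hold 17138 genes. The fibroblasts were of the human lung line MRC5, and the tumor cells were of the neuroendocrine (NE) SCLC line H69 or the non-NE SCLC line H196. There were 5 groups with 3 libraries each. MRC5_Mo and H196_Mo are the mono-cultures. MRC5_CoH69 and MRC5_CoH196 are fibroblasts that shared a well with the tumor line in their name, and H196_Co are H196 cells that shared one with MRC5. The partner cells sat on the membrane of a transwell insert above the sequenced cells, so that medium was shared without direct contact. The labels give no drug or genetic change in any group. The paper names different media for MRC5 and the SCLC lines and none for the co-culture wells. Partner cells and any change of medium therefore cannot be told apart when co-culture is set against mono-culture. Each cell type was represented by 1 line, and H69 cells themselves were not analysed here. Which separate cultures the libraries came from is not stated in the labels, so p-values measure only the spread between these libraries.

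Members of this family are made as membrane-anchored precursors that proteases such as ADAM17 cut free, after which the soluble domain binds a receptor tyrosine kinase on the same or a neighbouring cell. TGFA, AREG, EREG and HBEGF bind EGFR, HBEGF and EREG also bind ERBB4, and NRG1 binds ERBB3 and ERBB4. ERBB2 has no known ligand and acts as the preferred partner in receptor pairs, while ERBB3 has little kinase activity of its own and signals through its partner. In the lung, EGFR signalling is best known from epithelial repair and from adenocarcinoma, and EGFR is commonly low in NE SCLC.

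The libraries held between 16073597 and 19170560 expected counts. The fibroblast markers COL1A1, COL1A2, COL3A1, PDGFRB, THY1, LUM, DCN and FAP were all found in the MRC5 libraries, where their summed level was 26700 to 29700 CPM (counts scaled to a common library total) in MRC5_Mo, 30600 to 31600 in MRC5_CoH69 and 12600 to 13300 in MRC5_CoH196. In H196 libraries the same 8 genes summed to 2.05 to 3.09 CPM. The lower sum in MRC5_CoH196 lay mainly in the collagens. Mean FPKM in MRC5_Mo and MRC5_CoH196 was 2630 and 785 for COL1A1, 1970 and 1190 for COL1A2 and 260 and 54.0 for COL3A1. THY1 was at 154 and 131, DCN at 202 and 198 and FAP at 32.2 and 32.0. PDGFRB, at 60.7 and 85.5, and LUM, at 86.1 and 94.4, were higher in MRC5_CoH196. Of the NE markers, INSM1, CHGA and GRP were at 0 in every MRC5 library, and INSM1 and GRP were at 0 in every H196 library. Other NE markers were present. UCHL1 was at 591 FPKM in H196_Mo and 561 FPKM in MRC5_Mo, and CHGB, SYP and DLL3 were at 19.0, 8.71 and 4.04 FPKM in H196_Mo against 0.107, 0.10 and 0.357 FPKM in MRC5_Mo. The 6 epithelial markers summed to 126 to 168 CPM in MRC5 and 213 to 274 CPM in H196 libraries. H196 carried the non-NE genes YAP1, REST, MYC and VIM at a summed 5130 to 5910 CPM, although these are not specific, since the MRC5 libraries held 6060 to 9660 CPM of them.

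The upstream promoter bases of the ligand that dominated H196 cells (TGFA), of the ligand that moved in both lines (HBEGF) and of the receptor that rose in fibroblasts (EGFR) are shown for orientation, from RefSeq on GRCh38.p14, 5′ to 3′ on the coding strand. Each run is the 250 bases before the first start that RefSeq lists for the gene in the table used, at chr2:70553827-70554076 (minus strand) for TGFA, chr5:140346604-140346853 (minus strand) for HBEGF and chr7:55018767-55019016 (plus strand) for EGFR. The deposited span of TGFA reaches further upstream, so that its window lies inside that span. Capitals mark matches, on either strand, to GGGCGG, the GC box bound by SP1.
TGFA: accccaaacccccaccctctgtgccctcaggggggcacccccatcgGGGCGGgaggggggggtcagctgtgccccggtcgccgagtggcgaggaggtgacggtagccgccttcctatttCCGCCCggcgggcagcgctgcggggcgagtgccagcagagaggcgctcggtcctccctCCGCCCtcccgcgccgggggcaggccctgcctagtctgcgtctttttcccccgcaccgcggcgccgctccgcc
HBEGF: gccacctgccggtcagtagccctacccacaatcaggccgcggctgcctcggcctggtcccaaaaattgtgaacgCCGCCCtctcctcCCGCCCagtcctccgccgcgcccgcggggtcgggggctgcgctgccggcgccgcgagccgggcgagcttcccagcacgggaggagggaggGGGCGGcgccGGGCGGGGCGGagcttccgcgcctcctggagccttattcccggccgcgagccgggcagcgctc
EGFR: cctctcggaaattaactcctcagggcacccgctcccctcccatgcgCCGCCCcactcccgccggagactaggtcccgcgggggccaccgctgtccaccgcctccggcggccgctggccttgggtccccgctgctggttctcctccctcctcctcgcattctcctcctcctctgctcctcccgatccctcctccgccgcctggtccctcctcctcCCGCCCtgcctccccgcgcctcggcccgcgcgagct

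The GC box was found 3 times in the TGFA window, 5 times in the HBEGF window, where one pair of matches overlaps, and 2 times in the EGFR window. It occurs in 42.6% of the 35116 RefSeq windows of the same length. The bases G and C made up 75.6%, 76.4% and 73.6% of the windows of TGFA, HBEGF and EGFR, against a median of 58% over all windows. Neither ACGTG (the core bound by hypoxia-inducible factors, in 18.5% of windows), TGANTCA (the AP-1 site, in 6.57%) nor TATAAA (in 10.7%) was found in these 3 windows on either strand. TGFA and EGFR each have a second window, and that of EGFR, at chr7:55109589-55109838, held 2 matches to TGANTCA and 2 to TATAAA, while that of TGFA held none of the 4 motifs. Matches of this kind describe letters and do not show binding.

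TGFA was by far the most abundant ligand, and it was almost wholly a transcript of H196 cells. In H196_Mo its FPKM (fragments scaled by gene length and by the mapped total, a level that allows comparison between genes) was 53.4, 49.4 and 49.1. In H196_Co it was 61.1, 67.0 and 58.8, and the groups did not overlap. The MRC5 libraries held between 0 and 10 TGFA counts each, against 3256 to 4327 in each H196 library.

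HBEGF, the heparin-binding ligand, was the only one of the 5 found at more than 2 FPKM in both lines in every library. MRC5_Mo had 9.26, 10.9 and 11.2 FPKM and H196_Mo had 5.48, 5.33 and 6.01 FPKM. NRG1 was mainly a fibroblast transcript, at 7.65, 7.17 and 7.08 FPKM in MRC5_Mo against 1.39, 1.54 and 1.62 in H196_Mo. Fibroblasts therefore held the higher level of both ligands when the lines were cultured alone. AREG was low, at 0.67 to 1.17 FPKM in MRC5_Mo and 0.12 to 0.18 in H196_Mo. EREG was at 0.10 to 0.17 FPKM in MRC5_Mo, and H196 libraries held at most 1 EREG count each.

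Among the receptors, EGFR and ERBB2 were fibroblast-high and ERBB3 was found in H196. EGFR was at 25.0, 23.7 and 24.4 FPKM in MRC5_Mo and at 9.41, 8.70 and 8.31 FPKM in H196_Mo. ERBB2 was at 27.5, 26.6 and 26.0 FPKM in MRC5_Mo and at 11.01, 12.17 and 12.15 FPKM in H196_Mo. ERBB3 was at 4.17, 4.81 and 5.05 FPKM in H196_Mo, while MRC5_Mo held 5 or 6 counts per library, or 0.17 to 0.30 FPKM. Levels of the 2 lines come from tables made separately and were set side by side without a test.

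**Figure D1:**
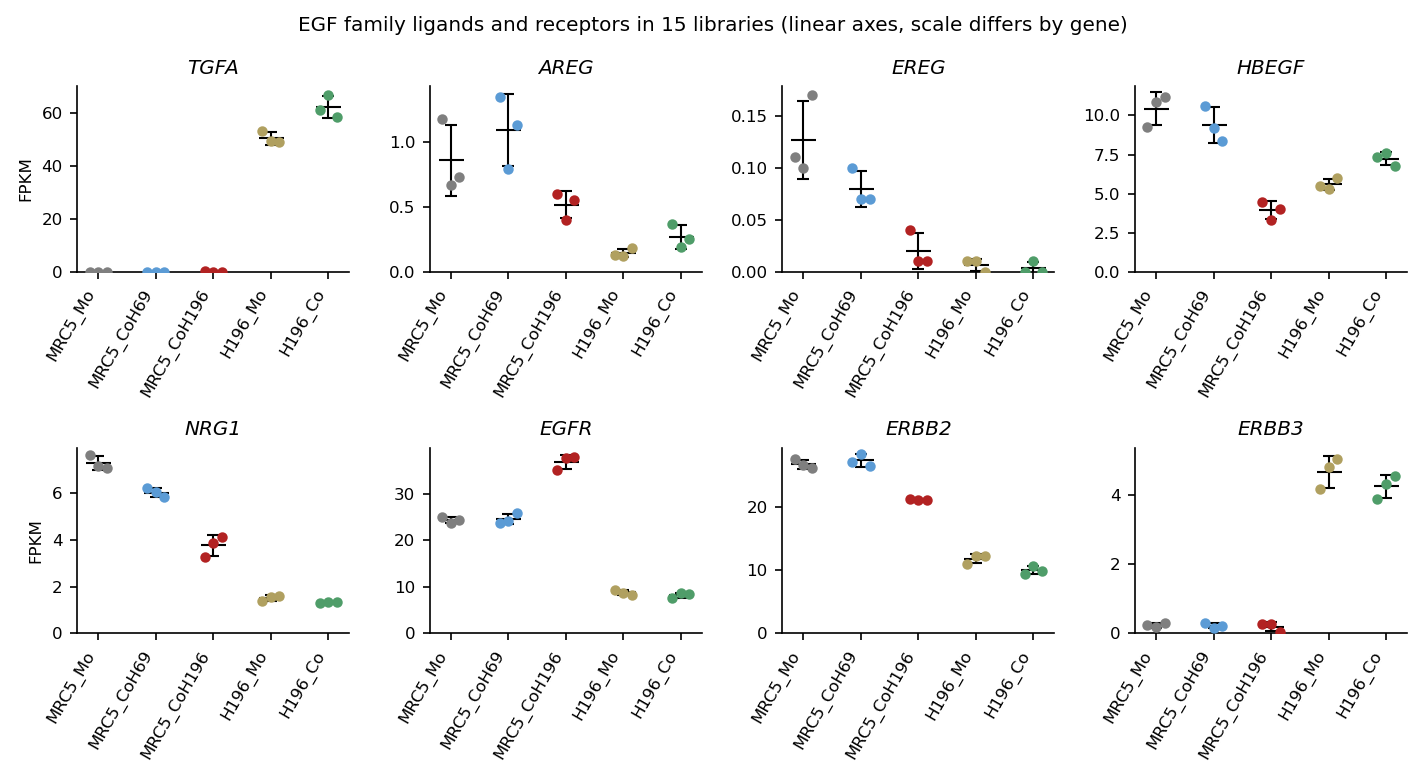
FPKM (linear y axis, scale differing by gene) of the 8 genes in each of the 15 libraries, with points for libraries and bars for the mean and SD of 3 libraries per group. TGFA sits at 49.1 to 67.0 FPKM in H196 libraries and at no more than 0.14 in MRC5 libraries, and EGFR is highest in MRC5_CoH196.

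The order of group means on the FPKM scale differed from gene to gene, and overlap in this paragraph refers to FPKM of the libraries. For EGFR it was MRC5_CoH196, MRC5_CoH69, MRC5_Mo, H196_Mo and H196_Co, with overlapping libraries between MRC5_CoH69 and MRC5_Mo and between the 2 H196 groups. For HBEGF it was MRC5_Mo, MRC5_CoH69, H196_Co, H196_Mo and MRC5_CoH196, and only the first 2 overlapped. For NRG1 no neighbours overlapped, in the order MRC5_Mo, MRC5_CoH69, MRC5_CoH196, H196_Mo and H196_Co. For ERBB2 the order was MRC5_CoH69, MRC5_Mo, MRC5_CoH196, H196_Mo and H196_Co, and only MRC5_CoH69 and MRC5_Mo overlapped. ERBB3 was higher in both H196 groups than in any MRC5 group, and neighbours within each line overlapped. On the count scale normalized for the test, the H196 groups overlapped for NRG1 and ERBB2 as well.

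The genes lie on different chromosomes, apart from the neighbours EREG and AREG. In the deposited annotation (GRCh38.p13) TGFA (gene ID 7039) spans chr2:70447284-70611554, EREG (2069) chr4:74365145-74388749, AREG (374) chr4:74445136-74455005 and HBEGF (1839) chr5:140332843-140346603. EGFR (1956) spans chr7:55019017-55216855, NRG1 (3084) chr8:31638735-32774229, ERBB3 (2065) chr12:56080108-56103505 and ERBB2 (2064) chr17:39688094-39728660.

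The comparison of MRC5_CoH196 with MRC5_Mo asks how fibroblasts cultured with non-NE SCLC cells differed from fibroblasts alone. EGFR rose while the ligands HBEGF and NRG1 fell. Of the 8 genes, 5 had enough counts for the fit, and 3 of these were called, that is, passed an adjusted p of 0.05 and a log2 fold change of 0.58 in either direction. Of all 12819 tested genes 31.9% were called (17.2% higher and 14.7% lower), so a call was common in this comparison. By the adjusted p alone 4 of the 5 passed, against 74.3% of tested genes, and 4 of the 5 had groups without overlap, against 75.5%.

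EGFR counts were 4370, 4145 and 4203 in MRC5_Mo and 6254, 6496 and 6877 in MRC5_CoH196. Every co-culture library lay above every library of MRC5_Mo. The fitted log2 fold change was 0.78 (SE 0.045, n = 3 per group), or 1.72-fold, with an edgeR adjusted p of 4.64e-14. On the FPKM scale the mean went from 24.4 ± 0.662 to 36.8 ± 1.54 (SD, n = 3). On log2(FPKM + 1), where the median of all genes was -0.13, the change of EGFR was 0.575, just inside the fold limit (limma adjusted p = 3.66e-07). In bulk RNA, more EGFR RNA per cell and a larger share of cells with EGFR RNA cannot be told apart.

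ERBB2, the other abundant receptor of these fibroblasts, did not follow EGFR. Its counts were 2164, 2087 and 2011 in MRC5_Mo and 1742, 1642 and 1703 in MRC5_CoH196, again without overlap. The log2 fold change was -0.14 (SE 0.046, edgeR adjusted p = 0.00733), which lies inside the fold limit. EGFR and ERBB2 were near parity in MRC5_Mo, where the ratio of their FPKM was 0.913 ± 0.0243 (SD, n = 3), and the ratio was 1.74 ± 0.0785 in MRC5_CoH196. The exact two-sided permutation test of this ratio gave p = 0.1, the smallest that 3 against 3 libraries allow.

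HBEGF showed the largest fall among the called genes of the 8. Its counts were 361, 425 and 431 in MRC5_Mo and 178, 128 and 159 in MRC5_CoH196. The log2 fold change was -1.23 (SE 0.11, edgeR adjusted p = 1.71e-10), so that the level was 0.426 times that of MRC5_Mo. HBEGF of MRC5_CoH196 was the lowest of all 5 groups, at 3.94 ± 0.568 FPKM (SD, n = 3), below both H196 groups.

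NRG1, the ERBB3 and ERBB4 ligand, fell too. Counts were 551, 522 and 548 in MRC5_Mo and 273, 315 and 318 in MRC5_CoH196. The log2 fold change was -0.68 (SE 0.07, edgeR adjusted p = 3.17e-09), with an interval of 1.96 standard errors from -0.82 to -0.54, which reaches inside the fold limit.

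AREG, an EGFR ligand with a known role in tissue repair, had 21, 12 and 13 counts in MRC5_Mo and 11, 7 and 10 in MRC5_CoH196, and the groups overlapped on the normalized scale. Its log2 fold change of -0.55 (SE 0.35) did not pass (edgeR adjusted p = 0.16, interval -1.24 to 0.14). EREG had 9, 8 and 14 counts in MRC5_Mo and 3, 1 and 1 in MRC5_CoH196, too few to pass the filter. The ratio of summed EREG counts, scaled to the library totals, was 0.159 (exact 95% counting interval 0.0484 to 0.414), and the exact permutation test over libraries gave p = 0.1, the smallest it allows. HBEGF, NRG1, AREG and EREG thus all had lower means in MRC5_CoH196, and HBEGF and NRG1 passed the test.

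The summed FPKM of the 5 ligands was 18.7 ± 0.494 in MRC5_Mo and 8.32 ± 0.535 in MRC5_CoH196 (SD, n = 3). The summed FPKM of the 3 receptors was 51.3 ± 1.22 and 58.1 ± 1.40. Neither pair of groups overlapped, with an exact permutation p = 0.1 for each, the smallest possible. EGFR made up 47.5% ± 0.598 of the receptor FPKM in MRC5_Mo and 63.3% ± 1.16 in MRC5_CoH196 (SD, n = 3).

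**Figure D2:**
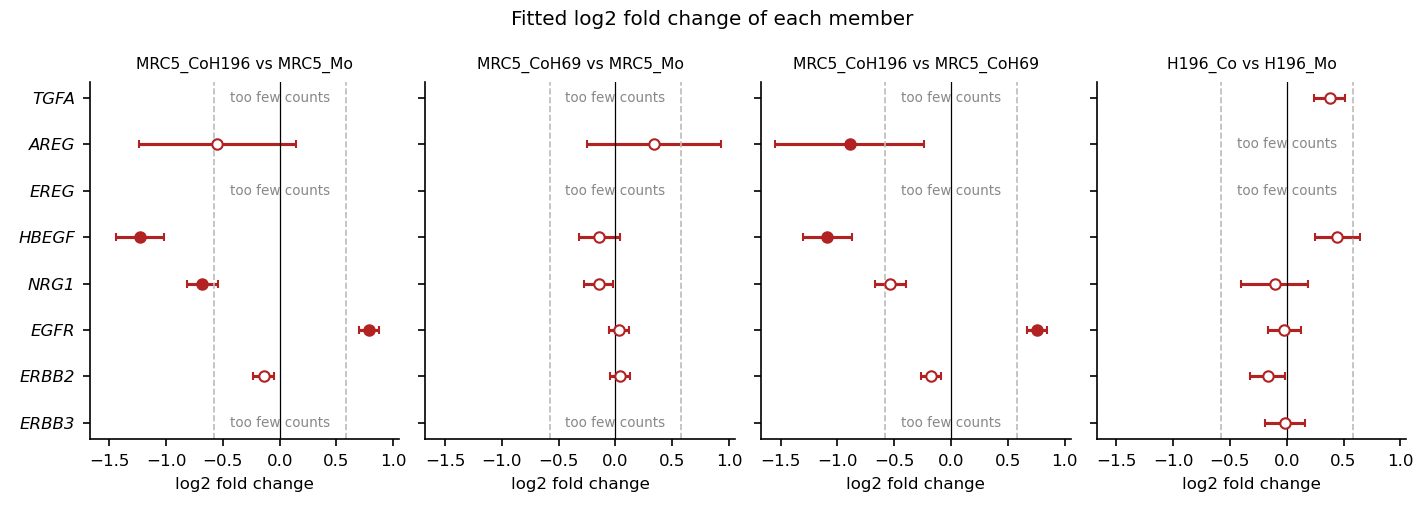
Fitted log2 fold change (x axis) of each gene in 4 comparisons, with bars of 1.96 standard errors on each side, filled points for calls and dashed lines at the fold limit of 0.58. EGFR lies to the right and HBEGF to the left in both comparisons of MRC5_CoH196, and no point is filled for MRC5_CoH69 against MRC5_Mo or for H196_Co against H196_Mo.

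TGFA and ERBB3 stayed near the detection limit in fibroblasts. TGFA had 0, 1 and 0 counts in MRC5_Mo, 2, 1 and 3 in MRC5_CoH69 and 10, 5 and 1 in MRC5_CoH196. With 16 counts against 1, the ratio of scaled TGFA counts between MRC5_CoH196 and MRC5_Mo was 15.8 (exact 95% counting interval 2.46 to 663), and the permutation test over libraries gave an exact p = 0.1, the smallest possible. ERBB3 had 6, 5 and 6 counts in MRC5_Mo and 13, 13 and 5 in MRC5_CoH196, a ratio of 1.80 (0.967 to 3.47) with an exact permutation p = 0.3. On the FPKM scale ERBB3 was not higher, at 0.233 ± 0.0651 and 0.197 ± 0.127 (SD, n = 3). These intervals cover counting error only.

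Genes that mark H196 were found at a low level in the MRC5_CoH196 libraries. Whether their counts were RNA of H196 cells or expression of the fibroblasts themselves was not tested. A set of 98 genes, each at 20 CPM or more throughout H196_Mo and below 0.5 CPM throughout MRC5_Mo, summed to 9.49 to 10.3 CPM in MRC5_Mo, 8.63 to 10.6 in MRC5_CoH69 and 53.5, 62.1 and 23.8 in the 3 libraries of MRC5_CoH196. That is 0.603% of their level in H196_Co, and 97 of the 98 had a count in MRC5_CoH196, against 57 in MRC5_Mo. TGFA of MRC5_CoH196 was at 0.118% and ERBB3 at 2.87% of the level in H196_Co. Without H196 cells ERBB3 was already at 1.59% in MRC5_Mo and 1.3% in MRC5_CoH69. TGFA was at 0.0074% and the markers at 0.127% in MRC5_Mo. The 0.603% is used below without taking off the share in MRC5_Mo. The library with the lowest marker sum, replicate 3, also had the fewest TGFA and ERBB3 counts of the 3. The highest marker sum was in replicate 2, while the highest TGFA count was in replicate 1. The part of these markers in the TGFA and ERBB3 counts was not tested. A share of 0.603% of the H196_Co level would be 1.44 CPM for TGFA and 0.115 CPM for ERBB3, against 0.0522 to 0.523 CPM and 0.261 to 0.704 CPM in the MRC5_CoH196 libraries. For EGFR the same share would be 0.466 CPM, against 327 to 359 CPM found.

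**Figure D3:**
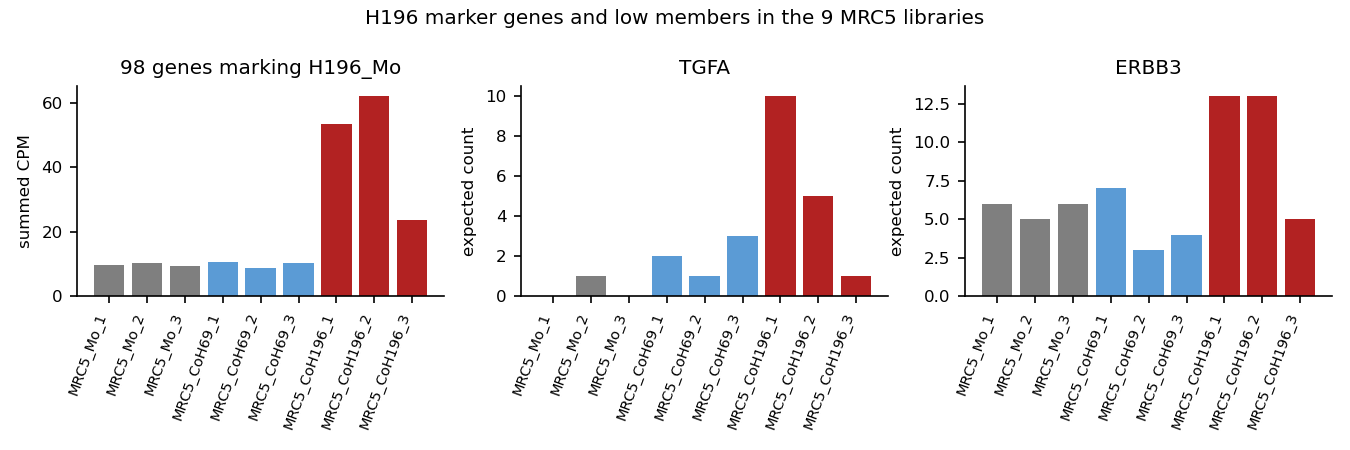
Summed CPM of the 98 H196 marker genes and expected counts of TGFA and ERBB3 (y axes from 0) in the 9 MRC5 libraries, one bar per library. The marker sum is 23.8 to 62.1 CPM in MRC5_CoH196 and at most 10.6 CPM in the other 6 libraries, and replicate 3 is the lowest bar of MRC5_CoH196 in all 3 panels.

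The co-culture with NE cells, MRC5_CoH69 against MRC5_Mo, called none of the 5 tested genes, where 0.554% of all 12819 tested genes were called and 6.7% passed the adjusted p. The smallest unadjusted edgeR p of these genes was 0.0319, for NRG1. The share of all tested genes at an unadjusted p under 0.05 was not counted, so no result is read from it. The DESeq2 Wald test called none by the adjusted p and fold limit, with NRG1 at an adjusted p of 0.391. EGFR counts were 4232, 4184 and 4485 in MRC5_CoH69, the first 2 within the range of MRC5_Mo and the last above it, with a log2 fold change of 0.03 and an interval from -0.06 to 0.12. ERBB2 had 2136, 2181 and 2071 counts and a log2 fold change of 0.04 (interval -0.05 to 0.13). Both intervals lay within the fold limit.

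HBEGF had 418, 355 and 323 counts in MRC5_CoH69 and a log2 fold change of -0.14 (interval -0.32 to 0.04). NRG1 had 504, 482 and 469 counts, below every library of MRC5_Mo, and a log2 fold change of -0.15 (SE 0.065, edgeR adjusted p = 0.192). Groups without overlap were common here, at 25.7% of tested genes. AREG had 24, 14 and 20 counts and EREG 8, 6 and 6, and both overlapped MRC5_Mo. For AREG the interval of the log2 fold change was wide, from -0.25 to 0.93.

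Set directly against MRC5_CoH69, MRC5_CoH196 showed the same receptor and HBEGF differences, with the same 3 libraries of MRC5_CoH196 in both comparisons. Of the 5 tested genes 3 were called, where 28.2% of all tested genes were. By the adjusted p alone all 5 passed, against 72.3% of tested genes, and all 5 had groups without overlap, against 73.1%. EGFR was higher by 0.76 on the log2 scale (SE 0.045, edgeR adjusted p = 1.22e-13) and HBEGF lower, with a log2 fold change of -1.09 (SE 0.11, edgeR adjusted p = 2.56e-09). AREG was also called, at -0.89 (SE 0.34, edgeR adjusted p = 0.0204), but it rests on 7 to 24 counts per library. Without MRC5_CoH69 replicate 1, MRC5_CoH69 replicate 3 or MRC5_CoH196 replicate 2 its adjusted p was 0.107, 0.0516 or 0.0888. The AREG call was also lost with the DESeq2 Wald test (adjusted p = 0.101) and, at the fold limit, on log2(FPKM + 1) (-0.454). NRG1 was lower by less than the fold limit, at -0.53 (SE 0.071, edgeR adjusted p = 2.89e-07), and so was ERBB2, at -0.18 (SE 0.046, edgeR adjusted p = 0.0011).

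The comparison of H196_Co with H196_Mo asks how non-NE SCLC cells cultured with fibroblasts differed from the same cells alone. TGFA and HBEGF, the EGFR ligands with the highest levels in H196, were both higher in H196_Co at an adjusted p of 0.05, and neither reached the fold limit. None of the 6 tested genes was therefore called, where 3.86% of all 12806 tested genes were. By the adjusted p alone 2 of 6 passed, where 19.8% of tested genes did, and groups without overlap were found for 2 of 6, against 37.2% of tested genes. Besides TGFA and HBEGF, ERBB2 had an unadjusted edgeR p under 0.05, at 0.049. The share of all tested genes at that limit was not counted, so no result is read from it. The DESeq2 Wald test called none at the fold limit, while TGFA and HBEGF passed its adjusted p (2.92e-06 and 0.0128).

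TGFA counts were 3282, 3298 and 3256 in H196_Mo and 4036, 4327 and 3825 in H196_Co, without overlap. The log2 fold change was 0.38 (SE 0.068, n = 3 per group, edgeR adjusted p = 0.000644), or 1.3-fold, with an interval from 0.24 to 0.51 that stays under the fold limit. HBEGF counts were 182, 193 and 216 in H196_Mo and 263, 265 and 239 in H196_Co. Its log2 fold change was 0.45 (SE 0.10, edgeR adjusted p = 0.00393), or 1.36-fold, with an interval from 0.25 to 0.64 that includes the limit.

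The receptors of H196 cells showed no call. EGFR had 1410, 1422 and 1347 counts in H196_Mo and 1214, 1372 and 1346 in H196_Co, and its log2 fold change was -0.02 (interval -0.17 to 0.12). ERBB3 had 317, 340 and 373 counts in H196_Mo and 303, 338 and 331 in H196_Co, with a log2 fold change of -0.01 (interval -0.19 to 0.16). ERBB2 had 752, 919 and 894 counts against 675, 775 and 725, and its log2 fold change of -0.17 (SE 0.08, edgeR adjusted p = 0.147) did not pass, with an interval from -0.33 to -0.01.

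NRG1 of H196 cells was at 70.99 to 83 counts in H196_Mo and 61 to 71 in H196_Co, and its log2 fold change was -0.11 (interval -0.40 to 0.19). AREG had 2, 2 and 3 counts against 6, 3 and 4, a ratio of 1.85 with an exact 95% counting interval from 0.686 to 5.47. EREG had 2 counts in all H196_Mo libraries together and 1 in H196_Co. A count of 0 in one H196 library allows up to 0.173 to 0.187 CPM.

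Genes marking MRC5 cells summed to slightly more in H196_Co than in H196_Mo. They were chosen as low in H196_Mo, so a higher sum elsewhere could come from that choice, which was not tested. The 160 genes marking MRC5_Mo by the same limits summed to 15.6 to 16.1 CPM in H196_Mo and 19.0 to 21.1 CPM in H196_Co, or 0.0436% and 0.0553% of their level in MRC5_CoH196. The latter share of HBEGF in MRC5_CoH196 would be 0.00452 CPM, against the 14.1 to 15.7 CPM found in H196_Co, and that of TGFA would be smaller still.

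The ligands of one line were set beside the receptors of the other. The insert cells were not the sequenced ones, so H196_Co and MRC5_CoH196 libraries come from separate wells and are not partners of each other. H196_Co held TGFA at 62.3 ± 4.24 FPKM, and MRC5_CoH196 held EGFR at 36.8 ± 1.54 FPKM (SD, n = 3), each the highest group mean of that gene. The summed FPKM of the EGFR ligands TGFA, AREG, EREG and HBEGF was 56.3 ± 2.28 in H196_Mo and 69.8 ± 4.57 in H196_Co (SD, n = 3), and the libraries did not overlap (exact permutation p = 0.1, the smallest possible). Of the summed FPKM of all 5 ligands, NRG1 included and NRG2 not counted, TGFA made up 87.4% ± 1.07 in H196_Mo and 87.5% ± 0.459 in H196_Co (SD, n = 3).

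In the opposite direction, the fibroblasts held less of the ligands for the H196 receptors. The EGFR ligands summed to 11.4 ± 0.798 FPKM in MRC5_Mo and 4.55 ± 0.715 in MRC5_CoH196, and EGFR in H196_Co was at 8.19 ± 0.541 FPKM (SD, n = 3). NRG1 was at 7.30 ± 0.306 FPKM in MRC5_Mo and 3.77 ± 0.448 in MRC5_CoH196, and ERBB3 in H196_Co was at 4.26 ± 0.330 FPKM (SD, n = 3). Of the NRG1 receptors, ERBB3 in H196 cells was the one above 1 FPKM. These are transcript levels, and neither released ligand nor receptor protein was measured.

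**Figure D4:**
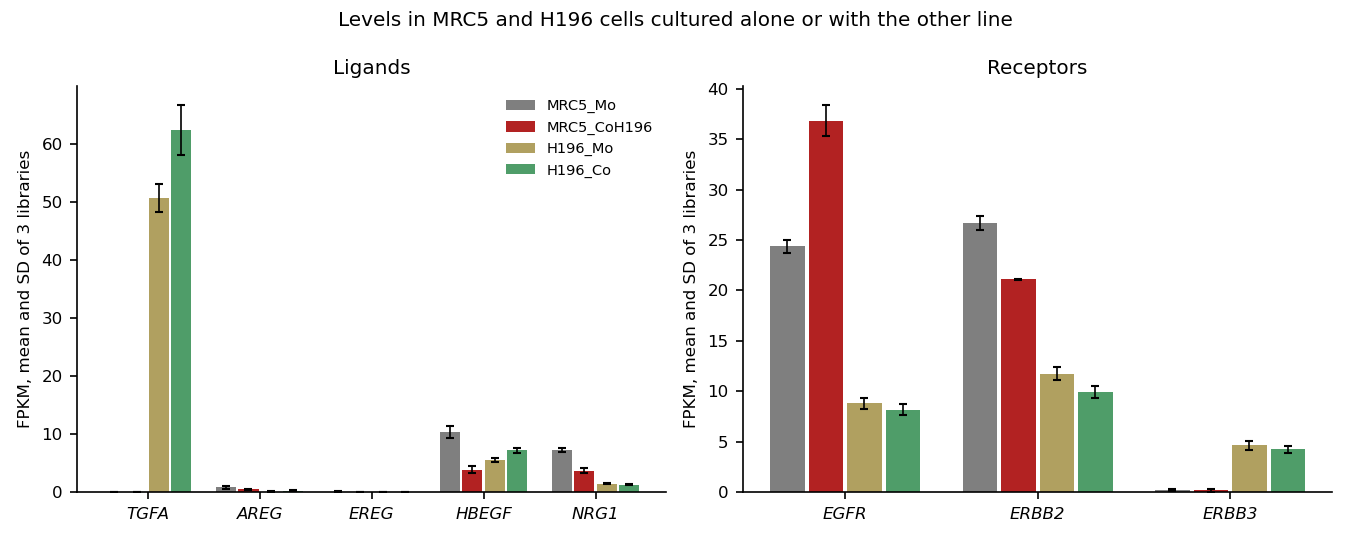
FPKM (linear y axis from 0) of ligands and receptors in MRC5 and H196 cells cultured alone or with the other line, with bars for the mean and error bars for the SD of 3 libraries. TGFA stands out in H196_Mo and H196_Co at 50.6 and 62.3 FPKM, EGFR in MRC5_CoH196 at 36.8 FPKM.

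The responses of the 2 lines were called unequal for 5 of the 7 genes that could be fitted over both tables. Of all 13585 tested genes 24.7% had a called difference. A positive value means a larger log2 fold change in MRC5 than in H196. HBEGF had a difference of -1.70 (SE 0.16, edgeR adjusted p = 7.74e-10), since it fell in MRC5 and was higher in H196. EGFR had a difference of 0.78 (SE 0.08, edgeR adjusted p = 6.84e-09) and NRG1 one of -0.60 (SE 0.15, edgeR adjusted p = 0.00175). TGFA, at 3.34 (SE 0.96, edgeR adjusted p = 0.00464), and ERBB3, at 0.998 (SE 0.41, edgeR adjusted p = 0.0447), were called as well, but their MRC5 side rests on 17 and 48 counts in 6 libraries, and the fitted size for TGFA depends on the prior count. Neither passed the count filter in the MRC5 fit, and both entered this fit through their H196 counts. AREG entered it through its MRC5 counts. The calls of TGFA and ERBB3 are therefore not counted here as differing responses. The call of NRG1 was lost without any 1 of 6 of the 15 libraries, at the fold limit, and that of ERBB3 without any 1 of 7. The NRG1 call was also lost with DESeq2 size factors (-0.556), the DESeq2 Wald test (-0.555) and at least 10 counts in every library (-0.57). ERBB2 had a difference of 0.00 with an interval from -0.18 to 0.18, and AREG one of -1.50 that did not pass (edgeR adjusted p = 0.0786).

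The other genes of the family were low or absent in most groups. EGF itself was at 0.207 ± 0.0737 FPKM in MRC5_Mo and 0.060 ± 0.0361 in MRC5_CoH196 (SD, n = 3) and was called lower, with a log2 fold change of -1.76 (SE 0.41, edgeR adjusted p = 0.000505). This call rests on few counts, 16, 31 and 18 in MRC5_Mo and 9, 6 and 2 in MRC5_CoH196. NRG2 was a transcript of H196 cells, at 6.41 ± 0.156 FPKM in H196_Mo and 4.83 ± 0.454 in H196_Co (SD, n = 3), where it was lower by less than the fold limit (log2 fold change -0.38, SE 0.089, edgeR adjusted p = 0.00553). NRG2 thus exceeded NRG1 in H196 cells, and its level was at most 0.08 FPKM in MRC5 libraries. NRG4 was at 0.10 to 0.68 FPKM in all groups and was not called in either line. ERBB4 was at 0.16 to 0.24 FPKM in H196 libraries and listed at 0.00 FPKM in every MRC5 library. BTC, EPGN and NRG3 did not pass the filter in any comparison.

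The receptor brakes and turnover genes held the largest change near the receptors in MRC5_CoH196. ERRFI1, which encodes the EGFR kinase inhibitor MIG6, went from 28.0 ± 1.09 to 544 ± 36.8 FPKM (SD, n = 3), a log2 fold change of 4.45 (SE 0.057, edgeR adjusted p = 5.01e-27). LRIG1, a membrane protein that promotes degradation of the ERBB receptors, rose by 1.96 on the log2 scale (SE 0.052, edgeR adjusted p = 7.68e-21), and SPRED1, an inhibitor of RAS signalling, by 0.73. LRIG3 fell, with a log2 fold change of -0.77. In all, 6 of 16 of these genes were called higher and 2 lower, where 17.2% of all tested genes were called higher and 14.7% lower, and the median log2 fold change was 0.16 against -0.003 over all tested genes. In H196_Co none of the 15 tested was called at this limit, where 3.86% of all tested genes were, 2 passed the adjusted p, where 19.8% of all did, and the median was near 0 (-0.00031).

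Of the 11 ligand shedding genes, 1 was called in MRC5_CoH196, where 31.9% of all tested genes were. By the adjusted p alone 7 were higher and 2 lower, where 74.3% of all tested genes passed. The median log2 fold change was 0.38, against -0.003 over all tested genes. The called gene was FRMD8, which stabilizes the iRhom and ADAM17 sheddase complex, and it fell from 12.1 ± 0.541 to 7.06 ± 0.868 FPKM (SD, n = 3, log2 fold change -0.60, SE 0.071, edgeR adjusted p = 4.31e-08). FRMD8 was also the 1 gene called of 8 tested in H196_Co, where 3.86% of all tested genes were called. There it went from 20.3 ± 1.66 to 12 ± 1.15 FPKM (SD, n = 3, log2 fold change -0.68, SE 0.087, edgeR adjusted p = 1.29e-05). For the protease ADAM17 the log2 fold change was 0.34 in MRC5_CoH196 and 0.07 in H196_Co. In MRC5_CoH69, ADAM19 was the 1 gene of the list that was called, at 0.59, where 0.554% of all tested genes were called.

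Among the 25 adaptors and kinases, 3 were called higher and 1 lower in MRC5_CoH196, a smaller share than the 31.9% of all tested genes. By the adjusted p alone 13 were higher and 7 lower, where 74.3% of all tested genes passed. The docking protein gene GAB1 rose by 1.11 and the kinase gene MAP2K1 by 1.04 on the log2 scale, the exchange factor gene SOS1 by 0.58, and NRAS had a log2 fold change of -0.61. In H196_Co and in MRC5_CoH69 none of the 25 was called, where 3.86% and 0.554% of all tested genes were. By the adjusted p alone 4 and 0 passed, against 19.8% and 6.7% of all tested genes.

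The MAPK output genes, early targets and feedback regulators of this cascade, were called higher in 4 and lower in 2 of 15 cases in MRC5_CoH196, against 17.2% and 14.7% of all tested genes. IER3 rose by 1.55, MYC by 1.0 and the phosphatase gene DUSP6 by 0.69, while EGR1 fell, at -0.69. In H196_Co 4 of 14 were called, all higher, where 3.26% of all tested genes were called higher. These were EGR1 at 0.95 (SE 0.11, edgeR adjusted p = 3.14e-06), FOSL1 at 0.65, MYC at 0.62 and FOS at 0.61. MYC was called higher in both lines, and EGR1 and FOS were called in opposite directions. FOS was at -0.65 in MRC5_CoH196 (SE 0.26, edgeR adjusted p = 0.0265), a less certain value than that of EGR1 (SE 0.05). In MRC5_CoH69 none of the 15 was called, where 0.554% of all tested genes were, and 3 passed the adjusted p, against 6.7%.

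**Figure D5:**
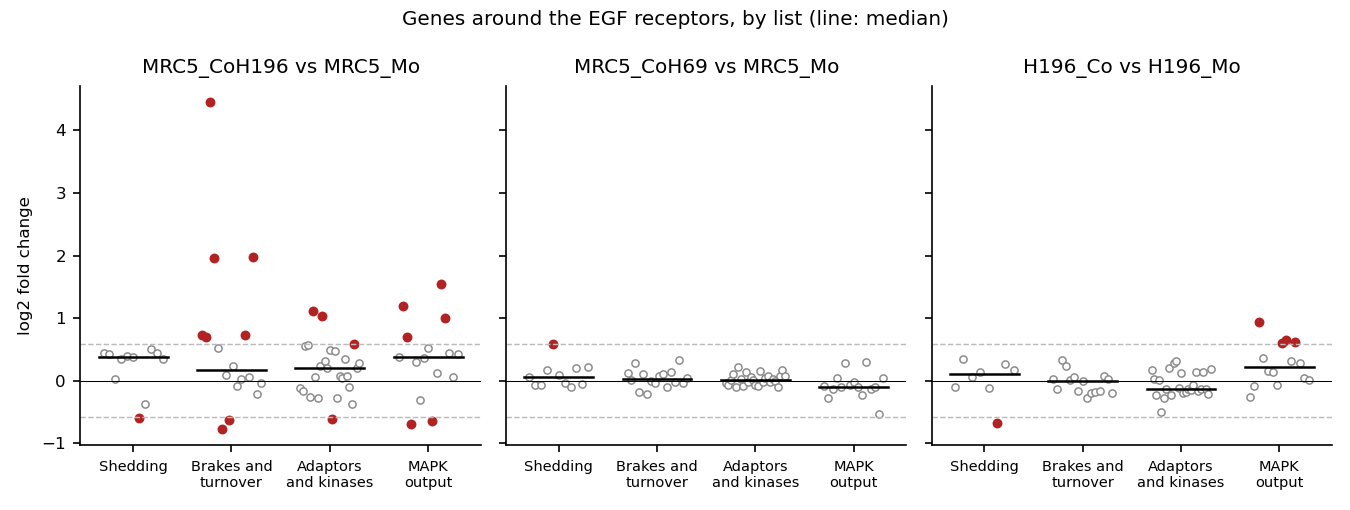
Log2 fold change (y axis) of each tested gene of 4 lists in 3 comparisons, with filled points for calls, open points for the rest, a line for the median and dashed lines at the fold limit of 0.58. The highest point is ERRFI1 at 4.45 in MRC5_CoH196, and the 4 filled points above the limit in H196_Co are MAPK output genes.

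Genes close to each called ligand or receptor across the 9 MRC5 libraries were found among 10446 genes of at least 5 CPM by the root mean square difference of centred log2 CPM. For EGFR they included CYTH3 at 0.033 and XRN1 at 0.033. For HBEGF they were MYBL2 at 0.092, SPRYD4 at 0.11 and ATAD3A at 0.11, and for NRG1 they included POLR1E and DCPS, each at 0.059. The 9 libraries fall mainly into MRC5_CoH196 and the rest, so that many genes with a change of like size are near each other by this measure.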

How the data were processed

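RNA of 9 MRC5 and 6 H196 libraries was enriched for poly(A) transcripts and sequenced by the submitters. The authors filtered reads with SOAPnuke. Alignment used HISAT against the GRCh38.p13 genome and Bowtie2 against gene sequences. The submitters' processing notes also name HISAT2 2.1.0, Bowtie2 2.3.4.3 and RSEM 1.3.1. The deposited expected counts are estimates of reads per gene without normalization (93.7% of MRC5 and 92.1% of H196 values are whole), and were rounded here. The deposited FPKM values are scaled by the authors for gene length and library total and were given to 2 decimals. Fold changes and p-values of the authors' own comparisons were not used, nor were a second copy of each table and 18 MRC5 and 12 H196 per-library columns (TPM and normalized counts).

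Each table was fitted whole with edgeR 4.0.16 (R 4.3.3), using filterByExpr, TMM and the quasi-likelihood test with Benjamini-Hochberg adjustment over 12819 MRC5 or 12806 H196 genes. The MRC5 groups shared one fit. The difference of responses was an interaction over both tables (13585 genes). A call needed an adjusted p under 0.05 and a log2 fold change beyond 0.58, the limit of the study. Intervals are 1.96 standard errors. Single values were compared by exact two-sided permutation over libraries, and a count of 0 was taken to allow 3 counts. Alternatives used DESeq2 1.42.0, limma 3.58.1 on log2(FPKM + 1) or log2(FPKM + 0.1), other filters and fold limits, the replicate number as a block, and each library left out. The script was tested on simulated counts.

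Every one of the 8 genes was named, all other family genes were described, and from each pathway list at most 4 called genes were named, those with the largest fold change at a mean of at least 5 CPM. The FOS value of MRC5_CoH196 is given beyond that limit. The ADAM17 values and the naming of the genes behind a count of few were chosen after their values were seen. The 8 genes and the lists were chosen with earlier results of these data known. Promoter bases came from RefSeq (GRCh38.p14), with windows for 6 of the 8 genes, of which 3 were printed. A few marker and similar-pattern genes are not reported here.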

Additional observations from a re-analysis of the deposited data

Results flagged for a closer look

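The co-culture difference of MRC5 (MRC5_CoH196 less MRC5_Mo) was set against that of H196 (H196_Co less H196_Mo). By the interaction test of edgeR it was called unequal for 5 of the 7 genes that could be fitted. Of all 13585 tested genes 24.7% had such a call. The calls of TGFA, NRG1 and ERBB3 were lost in some other settings. HBEGF had an interaction of -1.70 on the log2 scale, with all 3 libraries of MRC5_CoH196 below MRC5_Mo and all 3 of H196_Co above H196_Mo. EGFR had 0.777, with all 3 libraries of MRC5_CoH196 above MRC5_Mo and overlapping H196 groups. NRG1 had -0.602, with all 3 libraries of MRC5_CoH196 below MRC5_Mo. TGFA had 3.34, which rests on 1 count in MRC5_Mo and 16 in MRC5_CoH196, and ERBB3 had 0.998, which rests on 17 and 31 counts. These genes passed the count filter of this fit through their H196 counts and did not pass that of the MRC5 fit. The H196 marker genes found in MRC5_CoH196 are given beside TGFA and ERBB3 above, and their part was not tested.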

How the results depend on the processing

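Of 212 log2 fold changes of these genes in other settings, 191 kept their direction and side of the threshold, 11 lost and 3 gained a call, and 7 changed sign. With one library left out, 245 of 276 kept both, 16 lost the call and 15 changed sign. The calls of EGFR, HBEGF and NRG1 in MRC5_CoH196 against MRC5_Mo kept their direction in every setting. EGFR lost its call on log2(FPKM + 1), and EGFR and NRG1 lost theirs at a fold limit of 1. The number of calls in that comparison was 5 with the DESeq2 Wald test and with no filter (TGFA and EREG added), and 1 with a fold limit of 1. For MRC5_CoH196 against MRC5_CoH69 it was 1 with limma on log2(FPKM + 1), 5 with no filter, 5 with no fold limit and 1 with a limit of 1. For H196_Co against H196_Mo it was 2 with no fold limit. For the difference of responses it was 3 with DESeq2 and with limma on log2(FPKM + 1), 2 with at least 10 counts in every library and 2 with a limit of 1, and 3 to 5 with one library left out (3 without MRC5_Mo replicate 3 or MRC5_CoH196 replicate 1). The cause was not tested, apart from the filters, which change the genes tested.

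The sign of the difference of responses changed for TGFA to -0.199 with limma on log2(FPKM + 1) and for ERBB3 to -0.134 on log2(FPKM + 0.1). For ERBB2, which was near 0, it was 0.0448 with DESeq2 size factors, 0.046 with the DESeq2 test, 0.00526 with no filter, 0.0309 with at least 10 counts and 0.00509 with only the groups compared. With one library left out, values near 0 ranged from -0.0503 to 0.07 for ERBB2 (difference of responses), -0.00142 to 0.0482 for EGFR (MRC5_CoH69 against MRC5_Mo), and -0.0539 to 0.0281 for EGFR and -0.0468 to 0.0399 for ERBB3 in H196. The NRG1 difference came inside the fold limit without MRC5_Mo replicate 3, MRC5_CoH196 replicate 1 or 3, H196_Mo replicate 2, or H196_Co replicate 2 or 3 (-0.669 to -0.474 over all libraries left out). The ERBB3 difference lost its call without any MRC5_Mo replicate, MRC5_CoH196 replicate 1 or 2, H196_Mo replicate 3 or H196_Co replicate 1 (0.848 to 1.39, adjusted p up to 0.14).

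Same-numbered replicates did not deviate together (correlations -0.151 to 0.081). The labels do not state whether they were handled together, and correlations near 0 cannot decide it. With the replicate block the calls were 3, 0, 3 and 0 in the MRC5_CoH196 against MRC5_Mo, MRC5_CoH69 against MRC5_Mo, MRC5_CoH196 against MRC5_CoH69 and H196 comparisons, and 4 for the difference of responses, where ERBB3 was not called. On log2(FPKM + 1) the median of all genes was -0.13 for MRC5_CoH196 against MRC5_Mo and -0.14 against MRC5_CoH69. Depth limits TGFA, EREG, AREG and ERBB3 in MRC5 and AREG and EREG in H196, for which counting error exceeds most differences.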
